A study of Mus musculus with 4 samples.

Results

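Short RNAs that the deposited table assigns to messenger RNAs were examined among the RISC-bound short RNAs (R-sRNAs) of mouse brain. A sequence entered this class when it carried no miRNA name, when its annotation listed an Ensembl mRNA, and when that annotation listed no tRNA or rRNA. Of 85704 distinct sequences in the table, 14499 (16.9%) met the rule, and they were assigned to 6576 gene names. The RNA came from the cortex and hippocampus of male C57BL/6J (BL6) mice with no other genotype or treatment in the labels, 2 libraries from 2-month-old and 2 from 18-month-old animals. It was recovered with Argonaute (Ago) proteins bound to a tagged peptide derived from GW182, a protein family that binds all Ago proteins, so abundance here is abundance among Ago-bound RNA and not in the whole tissue. Values are CPM, counts scaled to a library total of 1000000, and each library stood for 9067057 to 11389142 reads. No label says whether the 2 libraries of an age came from separate mice, so every p-value measures only the spread between these libraries.

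The RISC, the complex of an Ago protein and a short guide RNA, silences mRNAs that pair with the guide. Most guides are miRNAs, which Dicer cuts from hairpins, but pieces of tRNA, rRNA and mRNA are also found on Ago proteins. Pairing is led by the 6mer seed, positions 2 to 7 counted from 1 at the 5′ end of the read. Each of the 4096 possible seeds carries a seed viability, the mean viability in percent of 3 mouse cell lines transfected with a short interfering RNA that holds it. A low seed viability marks a seed that kills cells, the process named death induced by survival gene elimination (DISE).

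The gene names and the reads did not match well. Of the 14499 sequences, 14151 (97.6%) named a transcript held in GENCODE M21, the mouse annotation used here. Only 1811 (12.5%) were found letter for letter in that transcript, in the sense direction. The median sequence lay 3 edits (substitutions, insertions or deletions) from its best site in the named transcript, and 10444 lay at 2 edits or more. The class is therefore called mRNA-assigned reads below, and its members were sorted by what they match.

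The first set of sequences is shown because it makes up the most abundant matched group: mRNA-assigned reads that differ by 1 base from a miRNA of the same length. Each miRNA as read in these libraries is followed by the mRNA-assigned read, named by its gene. Seeds are in capitals, T stands for U, and a change is written as the base of the miRNA, its position from the 5′ end and the base of the mRNA-assigned read.
mmu-miR-3099-3p: tAGGCTAgagagaggttgg
Trpm3-assigned, A7G: tAGGCTGgagagaggttgg
mmu-miR-1251-5p: aCTCTAGctgccaaaggcgct
Cops7a-assigned, A6G: aCTCTGGctgccaaaggcgct
mmu-let-7b-5p: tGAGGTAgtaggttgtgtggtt
Elp3-assigned, A10G: tGAGGTAgtgggttgtgtggtt
mmu-miR-124-3p: tAAGGCAcgcggtgaatgc
Sema4g-assigned, C10T: tAAGGCAcgtggtgaatgc
Pogk-assigned, A7G: tAAGGCGcgcggtgaatgc
mmu-miR-22-3p: aAGCTGCcagttgaagaactgt
Mir22hg-assigned, A15G: aAGCTGCcagttgaggaactgt
mmu-miR-222-3p: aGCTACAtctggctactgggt
Atp2a1-assigned, A15G: aGCTACAtctggctgctgggt
The RefSeq miRNA annotation (GRCm38.p6) places mature miR-3099-3p at chr7:6803638-6803659 (+), miR-1251-5p at chr10:92137190-92137210 (−), let-7b-5p at chr15:85707325-85707346 (+), miR-22-3p at chr11:75463772-75463793 (+) and miR-222-3p at chrX:19146901-19146923 (−).

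The second set shows reads that carry an mRNA name and lie inside longer reads that the same table assigns to the 3′ part of a tRNA, with the amino acid and the anticodon of that tRNA.
Hif3a-assigned, tRNA-Leu (TAA): aCCCCACtcctggtacca
Adarb2-assigned, tRNA-Lys (TTT): tCCCTGTtcgggcgccatt
Abhd2-assigned, tRNA-Phe (GAA): tCCCGGGtttcggcaccaa

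The third set shows reads that match the annotation exactly, most of them in the gene they were assigned to. The first lies in a mitochondrial coding sequence, the next in a nuclear one, and the third at the start of an antisense RNA. The next 4 close on the last bases of an annotated intron (the final letters ag), and the last matches a long intergenic noncoding RNA other than the mRNA it was named for. Coordinates are GRCm38, from the match to GENCODE M21.
mt-Co1, coding sequence, chrM:6153-6170 (+): gCAATAAtgtctattggc
Pdzd8, coding sequence, chr19:59345353-59345374 (−): tCCTCCGaggccggcgccagct
E130307A14Rik, antisense RNA, chr10:39731973-39731993 (−): tCCCCCGctcggagcgcgcgg
Grin1, intron end, chr2:25305213-25305234 (−): tAAGCTCcagggtcccgcgcag
Selenom, intron end, chr11:3516980-3517001 (+): tCCCGCCctttctccatcttag
Fmnl1, intron end, chr11:103192657-103192678 (+): tCACCATgtgctggtaccacag
Mast1, intron end, chr8:84923940-84923960 (−): cCTCGCTctcttcccccgcag
Hfe2-assigned, 5330434G04Rik, chrX:105349609-105349630 (−): tCATCATctgggaataataggt

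mRNA-assigned reads were a small part of the RISC. They summed to 4075 and 4862 CPM in the 2-month libraries and to 3875 and 4113 CPM in the 18-month libraries. As a share of the reads this was 0.408% (95% Wilson interval 0.404 to 0.412%), 0.486% (0.482 to 0.490%), 0.388% (0.384 to 0.391%) and 0.412% (0.407 to 0.416%). These intervals cover counting error only. The second 2-month library was the highest, and the ages overlapped. Mean shares were 0.447% at 2 months and 0.400% at 18 months (2-sided exact permutation test, p = 0.667, n = 2 and 2, where the smallest possible p is 0.33). The difference of −0.0474 points was −0.00803 without the second 2-month library and −0.0868 without the first. Reads were thin for single sequences: 491 members reached a mean of 1 CPM and 34 reached 10 CPM, while 7853 were seen in only 1 library. The 1942 members with reads in all 4 libraries held 55.6% of the class.

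Sorted by match, 2 groups held most of the reads. Members within 1 edit of a miRNA hairpin or of a read the table names as miRNA or hairpin, or 1 substitution from such a read, numbered 3294 and held 39.9% of the class, at 1642, 1724, 1757 and 1635 CPM in the 2 libraries of 2 months and then the 2 of 18 months. This order of libraries is kept below. Against hairpins alone 14.01% of all members matched within 1 edit, and 1.98% did so on the opposite strand of the same hairpins. Members that matched no RNA searched numbered 7868 and held 42.0% of the class, at 1696, 2185, 1447 and 1774 CPM. Their median distance to the named transcript was 4 edits. Only mouse RNA was searched, so whether these reads are mouse RNA at all is not known, and every value of the class that includes them carries this limit.

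The remaining groups were small. Reads exact in their named transcript and in no small RNA numbered 1589 sequences, 6.40% of the class, at 254, 374, 214 and 240 CPM. Reads 1 edit away from it held 2.74%, reads exact only in another transcript 2.58%, reads on tRNAs 4.06%, reads on other small RNAs 1.23%, and reads whose named transcript was not found 1.12%. In each library these exact mRNA fragments thus made up between 5.53% and 7.69% of what the table assigns to mRNA. Before small RNAs took precedence, the 1811 sequences exact in their named transcript held 9.35% of the class.

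The gene names that led the class were mostly names for other RNAs. The 20 names with the most reads held 29.8% of the class, and by where most of their reads matched, 11 of the 20 were miRNA variants, 2 tRNA 3′ ends, 1 a noncoding RNA and 5 unmatched. One, Tnrc6b, was led by exact mRNA fragments. Among the 15 most abundant sequences, 9 were 1 substitution from a miRNA, 5 matched nothing searched and 1 was the Hfe2-assigned read. No exact fragment of a named mRNA was among them.

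Mir22hg, the host transcript of miR-22, came first with 132 sequences at 204, 264, 137 and 175 CPM. Its reads near miR-22-3p amounted to 1.25%, 1.27%, 1.24% and 1.20% of the miR-22-3p reads of the same library. Those miR-22-3p reads stood at 16196, 20334, 10809 and 14379 CPM, so the 2 counts were high and low in the same libraries. Another 3 names held a like share beside a miRNA. Gm13648 (62.2, 106, 146 and 122 CPM) held reads near miR-429-3p at 1.09 to 1.21% of that miRNA. Spaca6, which encodes a sperm protein needed for fertilisation (90.5, 113, 110 and 78.4 CPM), held reads near miR-125a-5p at 1.57 to 1.83%. Vmp1, which encodes an autophagy protein (58.7, 48.6, 68.7 and 75.9 CPM), held reads near miR-21a-5p at 1.21 to 1.35%.

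One miRNA could be spread over many genes. The 141 members 1 substitution from miR-124-3p, a miRNA abundant in neurons, were assigned to 37 gene names and summed to 212, 198, 208 and 139 CPM. They included Sema4g, a semaphorin (34.4, 39.0, 41.6 and 32.5 CPM), Pax9, a transcription factor (29.1, 29.7, 27.9 and 19.2 CPM), and Pogk (26.1, 23.7, 19.95 and 14.9 CPM). Reads 1 substitution from hairpin reads of miR-376b were likewise split over 38 names. F8, which encodes coagulation factor VIII, stood at 28.5, 24.1, 31.2 and 41.9 CPM with 99.1% of its reads placed on miRNAs. Elp3, the catalytic subunit of Elongator, held 34 sequences that were all placed on miRNAs, mainly let-7b-5p (82.6, 76.2, 101 and 93.7 CPM).

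Of the 20 names, 2 were led by tRNA pieces. Adarb2 encodes a brain relative of the RNA-editing deaminases, and its reads stood at 100, 90.4, 78.1 and 74.9 CPM. Of its 87 sequences, 79 opened with 15 bases that also stand in a tRNA read of the table, and these held 97.1% of its reads. By the order of classes used above, 55.8% of its reads were placed on tRNAs and 23.7% on miRNAs. Hif3a, a hypoxia-inducible factor, stood at 24.9, 27.7, 30.1 and 25.5 CPM with 85.0% of its reads on tRNAs. Over all names, tRNA-Lys (TTT) gave 30.7% of the tRNA-placed reads, tRNA-Leu (TAA) 15.6% and tRNA-Phe (GAA) 11.9%.

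A further 5 names were led by reads that matched no RNA searched, and their origin was not tested. Glb1l2 stood at 90.6, 116, 35.5 and 101 CPM, Mfsd11 at 63.5, 36.8, 43.4 and 44.0 CPM, and Prkca, a protein kinase C, at 46.4, 41.4, 52.0 and 45.2 CPM. Sh3pxd2a stood at 29.6, 58.9, 26.0 and 31.9 CPM and Tmpo at 19.4, 24.4, 22.3 and 26.7 CPM. The Prkca and Sh3pxd2a reads were 16 and 15 nt long at their most abundant, below the 19 nt lower bound of the gel cut. Hfe2, which encodes the iron regulator hemojuvelin, stood at 62.6, 56.0, 62.8 and 57.8 CPM, and 93.4% of this was exact in the noncoding RNA 5330434G04Rik. Its most abundant read was also the most abundant mRNA-assigned sequence of all, at 49.2, 44.6, 46.3 and 42.5 CPM.

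Among mRNA-assigned reads, substitutions were not spread evenly over base changes. Changed reads that kept a hairpin name are not counted here. For miR-124-3p A7G these held 59.1 CPM against 18.9 CPM that were mRNA-assigned, and for let-7b-5p A10G 55.5 against 87.4 CPM. In 2387 members, which held 83.6% of the miRNA-placed reads, a read of the same length with a miRNA or hairpin name was 1 substitution away, and the most abundant such read was taken as the reference. The 4 transitions made up 80.0% of their CPM, and A to G alone 41.1%. Without miR-3099-3p, A to G held 32.5%. A to G stood at 611, 551, 614 and 545 CPM, C to U at 197, 210, 218 and 214 CPM, U to C at 164, 182, 176 and 178 CPM and G to A at 164, 177, 166 and 151 CPM. The other 8 of the 12 changes each held 4.09% or less. A change of A to G is what deamination of adenosine to inosine leaves in a sequencing read, and reverse transcription and sequencing errors can leave it too. Those sources were not told apart here. The seed held the change in 552 members and 29.8% of the substituted CPM. Of these 421 CPM, miR-3099-3p A7G alone gave 180.

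miR-3099-3p with A7G stood apart from the rest. Here the mRNA-assigned form was more abundant than the miRNA itself. Over all lengths, 30 members assigned to Trpm3, Castor2, Clmn, Myrfl or Rab8a summed to 236, 150, 193 and 142 CPM, against 60.4, 53.8, 42.7 and 31.4 CPM for the rows with A. Trpm3 encodes a heat-sensitive cation channel and Castor2 a relative of the arginine sensor of mTORC1, and the most abundant reads lay 3 and 4 edits from their transcripts. Counting every row of the table that opens with the same 15 bases, G at position 7 made up 80.3% (95% Wilson interval 78.9 to 81.6%), 74.8% (73.1 to 76.5%), 82.7% (81.2 to 84.1%) and 82.6% (80.6 to 84.3%). All of these G reads were mRNA-assigned and none had kept the miRNA name. Both 18-month shares lay above both 2-month shares, with the first 2-month library close below them. The change moved the seed from AGGCUA to AGGCUG and its seed viability from 65.0 to 55.3%. AGGCUG was the most abundant seed of the class, at 251, 162, 207 and 152 CPM, while all miRNA-named reads with this seed summed to 0.907 CPM.

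miR-376b-3p was changed at its seed too, in reads named otherwise. The miRNA row of 19 nt is shown with the hairpin-assigned read of 21 nt and the F8-assigned read of 19 nt, which begins in the same way and carries A6G.
mmu-miR-376b-3p: aTCATAGaggaacatccac
mir-376b hairpin read: aTCATGGaggaacatccactt
F8-assigned, A6G: aTCATGGaggaacatccac
The unchanged row of 19 nt stood at 0.858, 0.263, 0.662 and 1.76 CPM. Unchanged rows of other lengths are not given here, so these rows do not give the changed share of miR-376b-3p. The hairpin-assigned read stood at 3063, 2931, 2275 and 3057 CPM, and the F8-assigned read at 8.01, 2.72, 8.51 and 12.7 CPM. Seed viability was 66.8% for UCAUAG and 44.2% for UCAUGG. RefSeq places mature miR-376b-3p at chr12:109723508-109723528 (+).

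miR-1251-5p with A6G moved seed viability most among the pairs printed here. G at position 6 made up 15.9% (13.4 to 18.8%), 17.6% (15.3 to 20.1%), 19.9% (16.4 to 23.9%) and 19.5% (16.7 to 22.6%) of the reads that open with these bases. All of the G reads were assigned to Cops7a, a subunit of the COP9 signalosome. The seed went from CUCUAG, with a viability of 70.1%, to CUCUGG, with 26.9%. In the abundant miRNAs the changed share was far lower. For let-7b-5p A10G it was 0.653, 0.674, 0.925 and 0.871% when mRNA-assigned reads alone were set against let-7b-5p reads of equal length. The first 15 bases do not tell let-7b-5p from its let-7 relatives, and shares by first bases also count changed reads with hairpin names. Of all reads that open with these bases, the changed share was 0.255, 0.256, 0.353 and 0.345%. By first bases miR-222-3p A15G stood at 0.377, 0.373, 0.440 and 0.418%, miR-22-3p A15G at 0.123, 0.131, 0.114 and 0.134%, and miR-124-3p A7G at 0.0958, 0.10, 0.0921 and 0.0986%.

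For some of these pairs the changed share was higher at 18 months with no overlap of the ages. This held for miR-3099-3p A7G, let-7b-5p A10G, miR-222-3p A15G and miR-1251-5p A6G in the shares above, and for miR-124-3p C10T, the Sema4g read, at 0.139 and 0.167% against 0.211 and 0.223% of reads of equal length. For miR-222-3p the ages overlapped when only mRNA-assigned changed reads and miRNA reads of equal length were compared, at 0.353, 0.437, 0.461 and 0.424%. Over all 95 pairs of a miRNA and a change with at least 100 changed reads, 23 (24.2%) were higher without overlap at 18 months and 10 (10.5%) lower. For the 29 A to G pairs these counts were 9 and 3. With 2 libraries an age, no single pair can reach an exact permutation p below 0.33. If age made no difference, the same fraction of pairs, 0.33, would be expected without overlap, both directions counted together. Pairs that share a miRNA are also not independent of each other. A rise of the changed share with age over the pairs as a set was not tested.

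Exact fragments of named mRNAs carried 1227 gene names, and few stood above the rest. Of the 1589 sequences, 254 were under 18 nt and held 16.9% of the exact CPM. Another limit is that 153 matched 2 or more genes, with 10.7% of the exact CPM. Whether short exact matches arose by chance was not tested. By the annotation of the named transcript, 32.3% of their CPM lay in coding sequence, 30.6% in 5′ UTRs, 15.3% in 3′ UTRs and 8.75% in transcripts annotated as retained intron. Tnrc6b led with 28 sequences at 17.3, 22.4, 15.4 and 18.3 CPM. It encodes a GW182-family protein, the family from which the peptide of the pull-down was made, and whether these reads came from brain mRNA was not tested. Of its sequences, 13 started within 5 nt of 1 site in the coding sequence and held 16.2 CPM on average, and the most abundant was 16 nt long. mt-Co1, a mitochondrially encoded cytochrome oxidase subunit, followed at 4.77, 9.92, 9.08 and 4.85 CPM.

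Many exact fragments sat at the start of a gene. Of the 1589, 481 (30.3%) began within 100 nt downstream of an annotated transcription start site of the gene, and they came from 372 genes. They held 34.9, 28.4, 36.0 and 38.5% of the exact CPM, and 88.6, 106, 77.2 and 92.5 CPM. The first 100 nt made up 5.16% of the length of the named transcripts on average. That value covers the start of the named transcript only, whereas the 30.3% counts any annotated start site of the gene. It is therefore not a matched baseline and can be too low, and enrichment of these fragments near start sites was not tested. The most abundant were in Wdr45b, a phosphoinositide-binding autophagy protein (5.63, 2.90, 9.74 and 4.96 CPM, 21 nt from the start site), Ctsl, the lysosomal protease cathepsin L (6.49, 8.25, 4.07 and 1.99 CPM, 19 nt), E130307A14Rik (5.91, 4.74, 1.89 and 7.94 CPM, 8 nt) and Tprn (1.53, 3.69, 1.70 and 2.76 CPM, 45 nt). Fragments near a start site were 75.2% G and C, the other exact fragments 62.6%, and miRNA reads 45.4%.

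Fewer exact fragments lay at the end of an intron. Introns of any annotated transcript of the gene were counted, and enrichment at their ends was not tested. The 3′ end of 64 exact members, from 41 genes, lay within 3 nt of the last base of an annotated intron, and in 19 of them exactly on it. Only 12 members began within 3 nt of the first base of an intron. The 64 summed to 15.1, 18.1, 10.4 and 9.15 CPM and the 12 to 2.00, 1.05, 1.70 and 0.992 CPM. Selenom, a selenoprotein of the endoplasmic reticulum, gave 0.953, 3.25, 1.04 and 2.32 CPM at such ends. Grin1, the obligate subunit of NMDA receptors, gave 2.38, 2.63, 0.851 and 0.552 CPM. Csdc2 gave 1.62, 1.05, 1.32 and 1.10 CPM and Fmnl1 0.953, 1.93, 0.851 and 0.551 CPM. These values are low, since 3 reads are 0.263 to 0.331 CPM.

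Genes that mark brain cell types were thinly covered. Of 30 neuronal and synaptic genes, 17 had mRNA-assigned reads, at 9.53, 14.05, 8.98 and 3.64 CPM, and 9 had exact fragments at 3.43, 5.44, 1.89 and 1.10 CPM. Grin1 led them at 5.82, 7.29, 4.82 and 1.66 CPM. It was the 1 gene of all these lists with an unadjusted p under 0.05 in the fit described below (log2 change −0.93, limma), where 11.9% of all items had one. Few genes of the lists had enough reads for that fit: 1 neuronal, 2 myelin, 1 mitochondrial, 1 ribosomal and 2 RISC genes. No gene of the other lists was tested. Camk2a, a calcium-dependent kinase of synapses, stood at 2.10, 0.176, 0.757 and 0.661 CPM, most of it placed on miRNAs. Myelin genes were read in 4 of 10 cases (4.10, 3.42, 3.12 and 5.74 CPM, led by Cnp), astrocyte genes in 7 of 13, microglia and immune genes in 2 of 12, endothelial and mural genes in 3 of 9 and blood genes in 1 of 5. No exact fragment was seen of the microglial, the endothelial or the choroid plexus genes. Of the 13 mitochondrially encoded genes, 11 had reads, at 18.8, 27.7, 18.9 and 17.1 CPM. Of 388 genes with names of cytosolic ribosomal proteins, pseudogenes included, 22 had reads, at 5.82, 6.67, 7.85 and 7.61 CPM. Translation factors and housekeeping genes had reads in 11 of 22 cases and histones in 11 of 110. Of 11 genes linked to Alzheimer's disease 6 had reads, 1.62, 1.58, 1.89 and 1.77 CPM in all, and App, the amyloid precursor, held 0.477, 0, 0 and 0.551 CPM. Of the 13 RISC genes 7 had reads, most of them from Tnrc6b.

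mRNA-assigned reads carried lower seed viability than miRNA reads. Weighted by reads, their mean seed viability was 51.3, 50.8, 53.1 and 52.2%, and that of miRNA-named reads 57.8, 58.0, 58.1 and 58.5%. They were lower in 4 of 4 libraries, with a mean difference of −6.25 percentage points (2-sided exact paired permutation test, p = 0.13, the smallest that 4 pairs allow). Without the reads that matched no RNA searched the difference was −3.87 points. The gap was not the same in every group of matches. Reads placed on miRNAs had a mean of 53.8%, exact mRNA fragments 52.5%, unmatched reads 48.5% and tRNA-placed reads 62.4%. Reads with a seed viability under 50% made up 40.4, 42.7, 37.1 and 40.7% of mRNA-assigned reads and 25.9, 27.1, 28.2 and 25.2% of miRNA reads.

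Seeds differed in composition. G held 31.8, 31.1, 30.4 and 30.3% of seed positions in mRNA-assigned reads and 24.4, 23.4, 22.4 and 22.3% in miRNA reads, a mean gap of 7.78 points in the same direction in all 4 libraries (exact paired permutation, p = 0.13). Unmatched reads were the richest in G, at 35.7%, and exact fragments stood at 28.3%. The gap was 4.32 points without the unmatched reads and 5.17 points for exact fragments alone. After AGGCUG, the leading seeds were those of miR-124-3p (AAGGCA, 176 CPM over 122 members), miR-22-3p (AGCUGC, 171 CPM, viability 14.3%) and the let-7 family (GAGGUA, 135 CPM over 73 gene names). GGCGAG (105 CPM, viability 46.9%) and UGGGAC (84.9 CPM, 37.0%) came next among seeds led by unmatched reads. In all, 32.0% of the class had a seed that miRNA reads also carry at 100 CPM or more, against 6.52% of the exact fragments. Reads within 1 edit of a miRNA had been sorted out of the exact fragments beforehand, so the sorting itself contributes to this contrast. The miRNA seeds at 100 CPM or more numbered 263 of the 4096 possible seeds.

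Length and first base also differed from those of miRNA reads. Mean length was 20.3, 20.2, 20.2 and 20.2 nt against 21.6, 21.6, 21.5 and 21.6 nt for miRNA reads, a mean difference of −1.37 nt (exact paired permutation, p = 0.13). The most common lengths were 22 nt with 21.9% and 21 nt with 17.0% of reads, and 19 nt followed with 16.6%. Reads of 15, 16 and 17 nt held 3.59, 4.56 and 4.75% of the class but 0% of the miRNA-named CPM. No miRNA name was thus given below 18 nt. The part of the length gap that comes from this naming was not tested. A 5′ U, the base that Ago proteins prefer, opened 51.2, 44.6, 51.5 and 47.6% of mRNA-assigned reads and 71.9, 71.6, 74.1 and 74.0% of miRNA reads, a mean difference of −24.2 points (p = 0.13, same exact test). It opened 33.5% of exact mRNA fragments, a difference of −39.4 points, and the difference was −11.2 points among members of at least 1 CPM. When each sequence counted once per library, however, mRNA-assigned sequences opened with U more often than miRNA sequences, by 4.54 points.

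Between 2 and 18 months the class as a whole shifted little. Mean seed viability was 51.0% at 2 months and 52.6% at 18 months, and both 18-month libraries were above both 2-month libraries (difference 1.61 points, 2-sided exact permutation test, p = 0.33, the smallest possible). miRNA reads moved by 0.434 points in the same direction. Without members placed on small RNAs the difference was 0.853 points. Among exact fragments alone the difference was 1.07 points and the ages overlapped (exact permutation test, p = 1).

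Single sequences were tested in a limma fit over the 14287 sequences that averaged 1 CPM or more. The share with an unadjusted p under 0.05 was 10.1%, made of 5.87% that were higher in the older mice and 4.23% that were lower. Of the 491 mRNA-assigned sequences tested, 31 (6.31%) did so, 13 higher and 18 lower, which is below the share of the whole table. With edgeR the split was 22 higher and 15 lower, where 5.71% of all sequences were higher and 3.73% lower. The median log2 change of the 491 was −0.04, against −0.01 over all sequences. Only 1 passed an adjusted p of 0.05 (0.042% of all sequences tested did).

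That sequence was a read of 19 nt assigned to Kdm5a, a histone demethylase, from whose transcript it differs by 5 edits. It stood at 12.6 and 5.80 CPM at 2 months (132 and 66 reads) and had no read in either 18-month library, so it was at least 29.9-fold lower when 3 reads per library are taken as the floor (limma, adjusted p = 0.0421). It matched no RNA searched, so that it is not known to be mouse RNA, and its seed viability was 83.7%. The call was lost when either 18-month library was left out, with the replicate block, with the other pseudocounts and with edgeR.

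Summed by gene name, 575 names reached 1 CPM and were tested among 1611 items, of which 11.9% passed an unadjusted p of 0.05 (3.72% upward and 8.19% downward with age). Of the 575 names 33 (5.74%) did, 12 higher and 21 lower, again below the share of all items. With TMM scaling in edgeR, which moved the median log2 change of all items from −0.13 to −0.01, 33 names were called and 25 of them were higher. Of all items edgeR called 5.77% higher and 3.97% lower, so that the whole table also turned upward. Kdm5a alone passed an adjusted p of 0.05 (log2 change −2.89 ± 0.42 SE, limma, adjusted p = 0.00541, where 0.497% of items passed), from 14.2 and 7.64 to 0.946 and 0.221 CPM. It too failed without either 18-month library (adjusted p = 0.309 and 0.248) and with the replicate block (adjusted p = 0.111).

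The names with the largest changes were listed at an unadjusted p under 0.05, without overlap of the ages and at 5 CPM or more. They were 2 higher and 5 lower at 18 months, Kdm5a among the latter. At most 5 names were listed in each direction, so these counts do not compare the directions. In limma none of the other 6 passed the adjustment. With edgeR, Mvk, Gm13648 and Lrfn2 still had an unadjusted p under 0.05, and Ctsl (0.0651), Epas1 (0.126) and Mir22hg (0.109) did not. Gm13648 was higher by a log2 change of 0.71 ± 0.29 (SE), and the miR-429-3p reads beside which its own lie stood at 5149, 8625, 12047 and 11065 CPM. Without the first 2-month library its change was 0.33. Mvk, mevalonate kinase, all of whose reads were placed on miRNAs, stood at 5.34, 3.69, 8.23 and 14.7 CPM (log2 change 1.14 ± 0.37), and at 0.76 without the second 18-month library. Mir22hg was lower by −0.58 ± 0.25 with miR-22-3p itself lower in the same libraries. Lrfn2, whose reads matched nothing, stood at 15.3, 14.6, 6.15 and 9.49 CPM. Epas1, a hypoxia-inducible factor with 93.5% of its reads on miRNAs, stood at 6.39, 7.38, 4.82 and 1.76 CPM (−0.97 ± 0.41, and −0.43 without the second 18-month library).

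Ctsl was the 1 such name made of mRNA. Its reads, 92.5% of them exact in the 5′ UTR near the start site, stood at 6.87, 8.78, 4.73 and 2.10 CPM, higher in both 2-month libraries (log2 change −1.06 ± 0.39, limma, unadjusted p = 0.0181, adjusted p = 0.278). Without the second 18-month library the change was −0.61. When only exact fragments were summed, 21 names were tested and 3 had an unadjusted p under 0.05 (14.3%, near the 11.8% of all items in that fit), with none adjusted. Exact fragments as a whole held 0.0254 and 0.0374% of reads at 2 months and 0.0215 and 0.0240% at 18 months (exact permutation test, p = 0.33).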

How the data were processed

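Ago-bound RNA was size-selected at 19 to 35 nt and sequenced, and, per the labels and the study's methods, the authors trimmed the reads (Trim Galore, version not given in the sources used here), removed rare reads, assigned them by BLAST to lists of small RNAs and of mm9 transcripts, and deposited them as CPM, with a seed viability score for each 6mer seed. A sum over libraries was deposited as a further score and served only to check the table. The deposited CPM gave whole reads for 100% of the low values (within 0.1 of a read), so depth was recovered.

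Members were taken by annotation. The members and gene lists were chosen with earlier results of these data known. Reads were compared (edlib 1.3.9.post1) with RefSeq hairpins, GENCODE M21 transcripts and rows of the table named as miRNA, hairpin, tRNA or rRNA. Reads under 18 nt had to match exactly and longer ones could hold 1 edit, and small RNAs took precedence over the named transcript. Names of joined transcripts stayed joined (50 members). Antisense and overlapping genes may share reads.

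Ages were compared with limma 3.58.1 (trend, log2(CPM + 1), mean of at least 1 CPM, Benjamini-Hochberg adjustment over all features), so that a fold change understates changes of low features, and with edgeR 4.0.16 and DESeq2 1.42.0 on recovered reads as alternatives (edgeR called 37 of the member sequences and 33 of the member genes at an unadjusted p under 0.05, DESeq2 16 and 17). For genes, member reads were summed by gene, miRNA reads by miRNA, and other reads by their first entry. Single values were compared by exact permutation tests in scipy 1.17.1. Scripts were tested on simulated data. Names in the text were the 20 genes and 15 sequences with the highest mean CPM, up to 5 genes in each direction with the largest log2 change (unadjusted p under 0.05, no overlap, at least 5 CPM), and those with an adjusted p under 0.05. The pairs, places, exact fragments and genes of the 13 lists described were chosen after their values were seen.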

Additional observations from a re-analysis of the deposited data

How the results depend on the processing

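Every sequence of the class carried mRNA entries alone, so that restriction changed nothing. Directions of the share of reads, of seed viability (between ages and against miRNA reads), of length and of G in the seed were kept in every alternative run, but sizes moved: the difference in share ran from −0.00803 to −0.0868 on leaving out 1 library (2 against 1, values only), and without unmatched reads the gaps to miRNA reads were −3.87 points in seed viability and 4.32 in seed G. The 5′ U gap of −24.2 points became 4.54 when each sequence counted once, −11.2 for members of at least 1 CPM and −39.4 for exact fragments. Calls of sequences at an unadjusted p under 0.05 (31) became 265 with no filter on low values, 1 at a minimum of 10 CPM, 16 with DESeq2 and 1 of 15 among exact fragments. For genes (33) these were 168, 3, 17 and 3, and 57 with limma without trend. Leaving out 1 library gave 30 to 37 sequences and 25 to 49 genes. The 1 sequence with an adjusted p under 0.05 became 0 with the replicate block, either other pseudocount, a minimum of 10 CPM, limma without trend, edgeR and exact fragments only. The 1 gene became 0 with the replicate block, a minimum of 10 CPM, limma without trend and exact fragments only, and 3 without a filter. Leaving out 1 library gave 0 to 2 sequences and 0 to 6 genes. The cause of these changes was not tested, other than that a stricter filter and exact fragments leave fewer features. Same-numbered libraries share only a number (correlation of their deviations 0.0356 for sequences and 0.0790 for genes), and with the replicate block 41 sequences and 27 genes were called before adjustment. Blocked differences were −0.0474 points for the share of reads and 1.61 for seed viability, each with an exact p of 0.5. The restriction to exact fragments, the removal of small RNAs or of unmatched reads and the blocks on single values were chosen after seeing the data.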
